A study of Mus musculus with 18 samples.

Results

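Guanylate-binding proteins (GBPs) and immunity-related GTPases (IRGs) were examined in a mouse breast cancer line treated with docetaxel, a taxane that stabilises microtubules. The 9 genes were Gbp2, Gbp3, Gbp6, Gbp7 and Gbp9 of the GBP family and Igtp (Irgm3), Irgm1, Irgm2 and Iigp1 of the IRG family, taken by name from a table of 32699 gene symbols. All 9 are in the table, 7 had at least 1 count, and 5 (Gbp2, Gbp3, Gbp9, Igtp and Irgm1) had enough counts to be among the 12145 genes tested. Both families are large GTPases that cells make after exposure to interferon, above all interferon gamma. They gather on the vacuoles of parasites and bacteria inside the cell and help to break them open, and GBPs also feed the inflammasome. The IRGM-type IRGs, Irgm1, Irgm2 and Igtp, sit on the cell's own membranes and hold the effector IRGs such as Iigp1 in check. Here they are read as possible readouts of interferon signalling, and roles of their own in tumour cells were not tested.

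The 18 cultures were of PyMT-BO1, a luminal B-like line from a C57BL/6 mouse with the PyMT oncogene, and in all of them integrin β3 had been knocked out. These knockout cells carried pMx, a retroviral vector with no insert, or were given back either human integrin β3 that works (hβ3) or a form that cannot signal (Δβ3). Treatment lasted 24 h, with DMSO as the control and docetaxel at 10 nM, and each of the 6 groups had 3 cultures. With 1 line per construct, p-values measure how far cultures of a line spread, and whatever else sets 2 lines apart cannot be told apart from the construct.

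Libraries held 7972612 to 18961392 counts. Itgb3, which encodes integrin β3, stood at 0.322 to 1.30 CPM (counts scaled to the TMM-adjusted library size) in pMx, 32.9 to 113.5 in Δβ3 and 72.2 to 130.6 in hβ3. Human sequence counts only where it aligns to the mouse gene. Of the luminal epithelial markers, Krt8 and Krt18 were abundant (338721 and 256147 counts in all), whereas Epcam had 5 counts, Krt19 4, Cldn3 3 and Elf3 0. A pair of libraries stood apart. Δβ3 docetaxel culture 2 and Δβ3 DMSO culture 1 had 37284 and 4457 CPM over 18 heart muscle markers, against 145 to 1877 in the other 16 libraries. Rn45s, the ribosomal RNA precursor, took 23.6% and 41.5% of their counts, against 6.59% to 33.0% in the others, with hβ3 DMSO cultures 1 and 3 at 27.5% and 33.0%. Results are therefore given with 18 libraries and, beside them, with 16. In bulk RNA, fewer cells of a type and less RNA per cell cannot be told apart.

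The genes lie in clusters (mm10, GENCODE M21). Gbp2 (chr3:142620602-142638008), Gbp3 (chr3:142560026-142573209) and Gbp7 (chr3:142530342-142550149) lie close together on the plus strand of chromosome 3, with Gbp2b between Gbp3 and Gbp2. Gbp6 (chr5:105270702-105293698) and Gbp9 (chr5:105077630-105139539) are on the minus strand of chromosome 5. Igtp (chr11:58199556-58207591) and Irgm2 (chr11:58199618-58222782) overlap on the plus strand of chromosome 11, and Irgm1 (chr11:48861968-48871683) is on the minus strand of the same chromosome. Annotated GENCODE gene spans of Gbp9, Gbp4 and Gbp8 overlap as well.

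Promoter sequence is shown as a description of the genes, and its part in the docetaxel response was not tested. Of the genes shown, Gbp7 and Irgm2 had 0 and 17 counts. Interferon signals act through the interferon-stimulated response element (ISRE) and the gamma-activated site (GAS). The 250 bases before each RefSeq start (GRCm38.p6) were searched on both strands for a core form of the ISRE (GAAA, any 2 bases, GAAA) and for the GAS palindrome (TTC, any 3 bases, GAA). RefSeq promoter entries matched 6 of the 9 genes, all but Gbp6, Gbp9 and Iigp1. Each of the 6 held the ISRE letters, and Gbp7, Igtp and Irgm2 also held the GAS letters. Among all 32851 promoters of the table, 2.98% held the ISRE letters, 7.02% the GAS letters and 0.332% both. The second RefSeq start of Gbp3, which lies downstream of the one shown, held neither. A match is a run of letters and does not show a bound site. Stretches follow 5′ to 3′ on the gene's strand, with matches in capitals. The Gbp2 and Irgm1 matches lie in an annotated exon, so 30 bases are shown for them and 80 for the others, which lie in no annotated exon.
Gbp2 chr3:142620594-142620623, plus strand: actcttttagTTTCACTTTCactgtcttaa
Gbp3 chr3:142559946-142560025, plus strand: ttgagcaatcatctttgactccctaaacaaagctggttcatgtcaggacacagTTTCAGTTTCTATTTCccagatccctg
Gbp7 chr3:142530219-142530298, plus strand: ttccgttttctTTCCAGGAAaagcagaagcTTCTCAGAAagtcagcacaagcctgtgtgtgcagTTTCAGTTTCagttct
Irgm1 chr11:48871428-48871457, minus strand: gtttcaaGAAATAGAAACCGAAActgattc
Igtp chr11:58199476-58199555, plus strand: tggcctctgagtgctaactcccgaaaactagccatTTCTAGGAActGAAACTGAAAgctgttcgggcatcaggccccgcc
Irgm2 chr11:58214872-58214951, plus strand: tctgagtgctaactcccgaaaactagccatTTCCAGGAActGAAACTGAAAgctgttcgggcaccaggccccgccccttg
The GBP stretches hold the ISRE letters in reverse orientation, as TTTC repeats, and the IRG stretches hold them forward. In Gbp3 and in Irgm1, 2 ISRE matches overlap. Aligned on the GAS letters without gaps, the Igtp and Irgm2 stretches were identical at 73 of 75 bases. Their GAS and ISRE matches are spaced alike.

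Gbp2, a GBP that coats pathogen vacuoles, was the best counted GBP, with 18620 counts from 1 transcript model. In pMx it had 40.2, 38.8 and 42.0 CPM in DMSO cultures 1 to 3 and 162, 172 and 159.7 CPM in docetaxel. In Δβ3 it had 33.6, 41.7 and 37.6 CPM in DMSO and 178, 85.3 and 161 in docetaxel. In hβ3 it had 22.0, 24.5 and 22.7 CPM in DMSO and 59.2, 63.6 and 72.8 in docetaxel. Every docetaxel culture lay above every DMSO culture of its line, and the hβ3 cultures were the lowest in either condition. As the mean of the 3 lines, the log2 change of Gbp2 was 1.81 ± 0.12 (SE, from 9 docetaxel and 9 DMSO libraries), a 3.51-fold increase (edgeR quasi-likelihood test, adjusted p = 3.27e-08).

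Gbp9, a GBP encoded in the chromosome 5 cluster, showed the widest gap between lines. In pMx it had 5.63, 5.67 and 3.68 CPM in DMSO and 24.6, 24.2 and 24.9 in docetaxel. In Δβ3 it had 5.72, 2.10 and 3.55 CPM in DMSO and 14.4, 43.2 and 15.1 in docetaxel. In hβ3 it had 1.39, 1.12 and 1.06 CPM in DMSO and 2.77, 3.21 and 4.54 in docetaxel. DMSO and docetaxel did not overlap within any line, and docetaxel-treated hβ3 cultures stayed within the range of the untreated cultures of the other lines, 2.10 to 5.72 CPM. The mean response was a log2 fold change of 2.17 ± 0.24 (adjusted p = 1.17e-05). Of the 50-base windows of its transcript, 9.56% also occur in other genes, most often Gbp8 and Gbp4.

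Gbp3, of the same chromosome 3 cluster as Gbp2, was counted at a low level, with 311 counts in all. In pMx it had 0.519, 0.701 and 0.903 CPM in DMSO and 2.75, 3.93 and 2.91 in docetaxel. In Δβ3 it had 0.888, 0.310 and 0.433 CPM in DMSO and 2.49, 0.466 and 2.96 in docetaxel. In hβ3 it had 0.0693, 0.310 and 0.213 CPM in DMSO and 1.02, 1.50 and 1.01 in docetaxel. Only in Δβ3 did the ranges overlap, through docetaxel culture 2, 1 of the 2 libraries that stood apart. The mean response was 2.19 ± 0.34 (log2, adjusted p = 0.000239).

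Irgm1, the IRG that guards endomembranes and supports autophagy, had 21100 counts from 1 model. In pMx it had 60.8, 59.2 and 62.1 CPM in DMSO and 134, 160.2 and 148 in docetaxel. In Δβ3 it had 35.2, 72.3 and 59.2 CPM in DMSO and 150.0, 84.1 and 138 in docetaxel. In hβ3 it had 51.8, 52.3 and 50.3 CPM in DMSO and 87.6, 90.9 and 96.3 in docetaxel. The conditions were separate in each line, with a narrower step than for Gbp2. The mean response was 1.09 ± 0.13 (log2), a 2.13-fold increase (adjusted p = 1.96e-05).

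Igtp, the IRGM-type protein also called Irgm3, had 258 counts. In pMx it had 0.260, 0.764 and 0.258 CPM in DMSO and 2.01, 3.08 and 1.78 in docetaxel. In Δβ3 it had 0.197, 0.543 and 1.30 CPM in DMSO and 2.93, 1.40 and 1.97 in docetaxel. In hβ3 it had 0.208, 0.372 and 0.284 CPM in DMSO and 1.09, 0.499 and 1.01 in docetaxel. No line had overlapping conditions, though Δβ3 DMSO culture 3 came close to Δβ3 docetaxel culture 2. The mean response was 1.85 ± 0.35 (log2, adjusted p = 0.00126). Of its 50-base windows, 12.3% also occur in Irgm2.

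**Figure D1:**
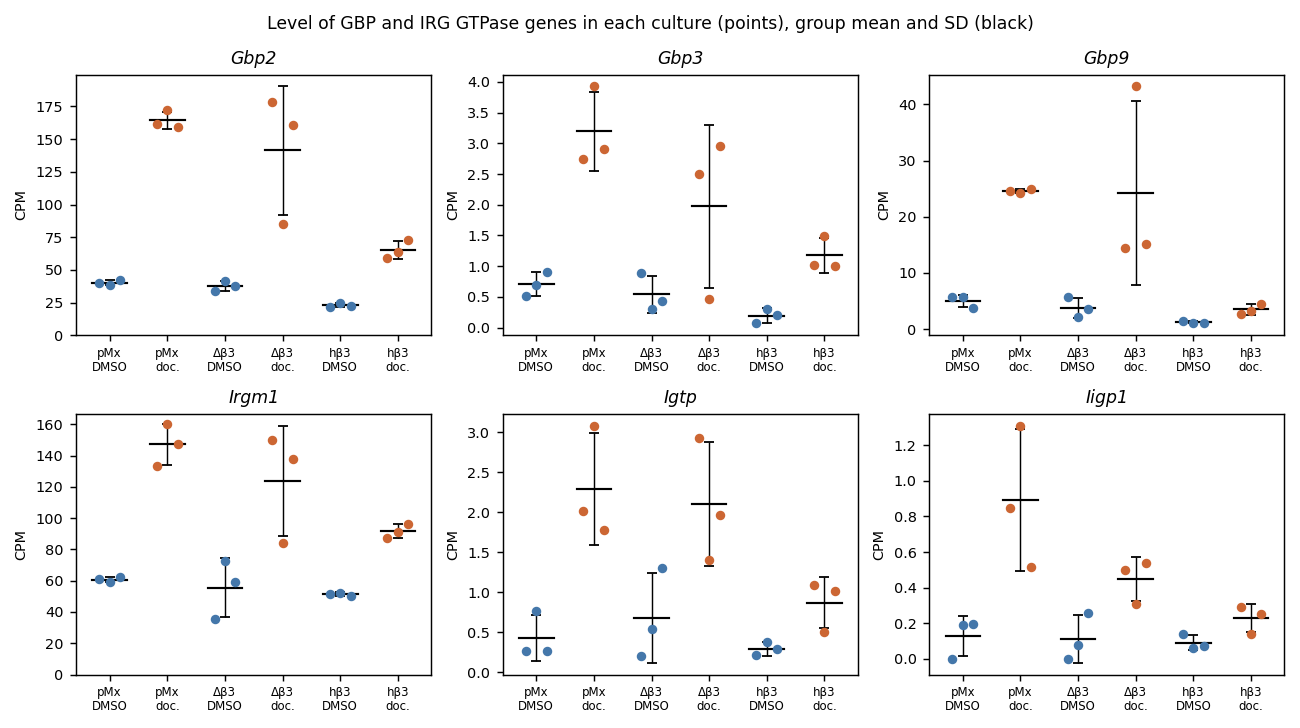
Level (CPM, linear axis) of 6 GBP and IRG genes in each culture, with points for cultures, a black bar for the group mean and whiskers for the SD (n = 3 per group); blue is DMSO and orange is docetaxel (doc.). Within pMx and hβ3 the orange points lie above the blue ones for Gbp2, Gbp3, Gbp9, Irgm1 and Igtp, and Δβ3 docetaxel culture 2 is low for Gbp2 (85.3 CPM) but high for Gbp9 (43.2 CPM).

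Iigp1, a well studied effector IRG encoded on chromosome 18, had 72 counts, 14 in DMSO and 58 in docetaxel. In pMx it had 0, 0.191 and 0.193 CPM in DMSO and 0.847, 1.31 and 0.516 in docetaxel. In Δβ3 it had 0, 0.0776 and 0.260 CPM in DMSO and 0.499, 0.311 and 0.538 in docetaxel, and in hβ3 0.139, 0.0620 and 0.0710 in DMSO and 0.292, 0.143 and 0.252 in docetaxel. In CPM the docetaxel cultures were above the DMSO cultures of each line, but in counts they overlapped in Δβ3 (0, 1 and 3 in DMSO against 8, 2 and 6) and met in hβ3 (2, 1 and 1 against 4, 2 and 3). Iigp1 was tested only with 16 libraries, where it passed the count filter through 2 docetaxel libraries and 0 DMSO libraries and so had to be high in docetaxel. There its mean response was 1.82 ± 0.53 (log2, adjusted p = 0.00747).

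The other members gave no comparison. Irgm2 had 17 counts, 9 in DMSO and 8 in docetaxel, and 0 to 3 in any library. Gbp6 and Gbp7 had 0 counts in all 18 libraries, which allows up to 0.141 to 0.466 CPM per library (3 counts, counting error only). Both have 2 transcript models in the table. For Gbp6, 90.2% of the 50-base windows also occur in other genes, most often Gm43302 and Gbp10. For Gbp7 12.8% do, most often in Gm43802 and Gbp3. The counting of reads that fit several models or places was not given in the sources used here, so a low or zero count does not show that the gene is silent. The same holds for Gbp3, Igtp and Iigp1, whose counts came from 2, 1 and 2 of their 3, 3 and 4 models.

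Levels can be set side by side per length for the 3 genes with 1 model. In pMx DMSO, Irgm1 had 27.3 ± 0.66 CPM per kilobase (SD, n = 3), Gbp2 16.4 ± 0.67 and Gbp9 1.37 ± 0.31. In pMx docetaxel, Gbp2 reached 67.0 ± 2.67 and Irgm1 66.1 ± 5.96, a difference smaller than the spread between cultures, with Gbp9 at 6.76 ± 0.094. In hβ3 docetaxel, Irgm1 stood at 41.1 ± 1.96, Gbp2 at 26.6 ± 2.83 and Gbp9 at 0.965 ± 0.25. The order of Irgm1 and Gbp2 seen in DMSO was thus still present in treated hβ3 cultures, while in treated pMx cultures the 2 levels were alike within the spread.

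The first comparison was the response to docetaxel. Averaged over the 3 lines, the 5 tested members rose, where 7.9% of tested genes rose and 7.67% fell, with a median log2 change of 1.85 against 0.06 over all tested genes. Gbp3 and Igtp passed the filter on low counts through docetaxel libraries (8 docetaxel and 2 DMSO libraries at or above 0.733 CPM for each). The count of members is thus not support in itself, here or within a line. Gbp2, Gbp9 and Irgm1 were above that level in all 18 libraries. Each of the 5 kept its direction and its call in all 24 alternative settings. With 16 libraries 6 of 6 tested members rose, where 15.8% of genes did, and in pMx alone 6 of 6, where 10.3% did. The sixth, Iigp1, also passed the filter through docetaxel libraries alone.

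The summed level of the 9 genes was 107.3 ± 1.98 CPM (SD, n = 3) in pMx DMSO and 342.7 ± 20.0 in pMx docetaxel. The corresponding sums were 98.5 ± 21.1 and 294.1 ± 70.3 for Δβ3, and 76.4 ± 2.10 and 162.7 ± 12.2 for hβ3. These sums rested mostly on Gbp2 and Irgm1, at 40.3 and 60.7 CPM in pMx DMSO and 164.5 and 147.2 in pMx docetaxel. Every docetaxel culture exceeded every DMSO culture for 5 of 5 tested members in pMx, where 17.4% of genes did, for 4 of 5 in Δβ3 (9.16%) and for 5 of 5 in hβ3 (14.9%). Gbp2, Gbp9, Igtp and Irgm1 met this in each of the 3 lines, as did 2.52% of all tested genes. Gbp3 and Igtp passed the count filter through docetaxel libraries, so their places in these counts are not support.

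Within lines, the empty vector cells gave the most calls. In pMx the 5 tested members rose, where 1.92% of genes did: Gbp2 by 2.03 ± 0.20 (log2, adjusted p = 3.72e-05), Gbp9 by 2.30 ± 0.40 (0.00384), Irgm1 by 1.28 ± 0.22 (0.00313), Igtp by 2.37 ± 0.59 (0.0309) and Gbp3 by 2.15 ± 0.54 (0.0344). The calls of Gbp3 and Igtp were near the threshold. Leaving out any pMx culture ended the call of Gbp3 (adjusted p 0.0886 to 0.156), and leaving out any pMx culture but DMSO culture 2 ended that of Igtp (0.0705 to 0.165). Gbp3 also lost its call without 1 of 4 hβ3 libraries (DMSO culture 3 and docetaxel cultures 1 to 3, 0.0508 to 0.0573) and Igtp without hβ3 docetaxel culture 3 (0.0504). Without the filter on low counts the call of Gbp3 ended as well (0.0517).

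In Δβ3, 3 members rose, where 3.33% of genes did. Gbp2 rose by 1.91 ± 0.20 (adjusted p = 4.24e-05), Gbp9 by 2.67 ± 0.41 (0.00135) and Irgm1 by 1.16 ± 0.22 (0.00558). Gbp3 stood at 1.91 ± 0.57 (0.0514) and Igtp at 1.63 ± 0.57 (0.0895). With 16 libraries Gbp3 rose as well, by 2.86 ± 0.49 (0.00025), and 4 of 6 tested members were called, where 5.98% of genes were higher. Δβ3 docetaxel culture 2 was low for Gbp2, Gbp3, Igtp and Irgm1 against cultures 1 and 3, yet its Gbp9 level of 43.2 CPM was the highest of the 18 libraries. In a fit of the 6 Δβ3 libraries alone no member was called, the adjusted p of Gbp2, Gbp9 and Irgm1 being 0.244 to 0.537.

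In hβ3 only Gbp2 passed the test, with 1.50 ± 0.20 (adjusted p = 0.000833), where 0.922% of genes rose. Irgm1 stood at 0.83 ± 0.22 (0.0875), Gbp9 at 1.55 ± 0.43 (0.11), Gbp3 at 2.50 ± 0.63 (0.0652) and Igtp at 1.55 ± 0.63 (0.363). With 16 libraries Gbp2, Gbp3, Gbp9 and Irgm1 rose (adjusted p 3.05e-11 to 0.00044), where 7.28% of genes did, and Igtp did not pass (0.0585). The number of calls per line thus differed without showing that the responses did.

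**Figure D2:**
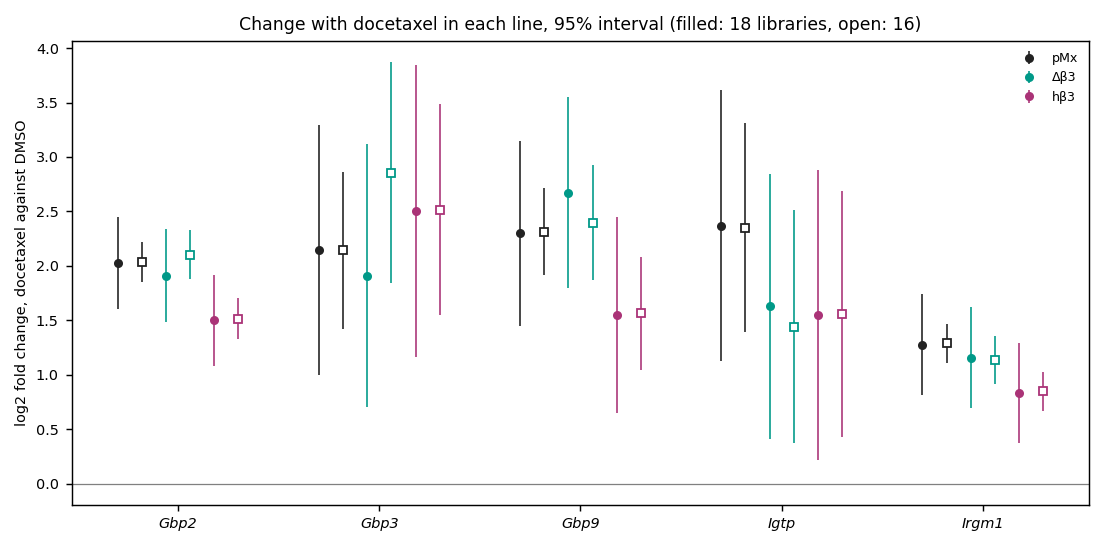
Log2 fold change of docetaxel against DMSO with its 95% interval for the 5 tested members in each line; filled circles are the fit of 18 libraries and open squares that of 16 libraries without Δβ3 DMSO culture 1 and Δβ3 docetaxel culture 2. All intervals, which are not adjusted for the number of genes, lie above 0. With 18 libraries the hβ3 value is the lowest for Gbp2 (1.50), Gbp9 (1.55), Igtp (1.55) and Irgm1 (0.83) and the highest for Gbp3 (2.50). With 16 libraries Δβ3 is lowest for Igtp (1.44) and highest for Gbp3 (2.86).

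The difference in response between lines was tested itself. With 18 libraries 0 of 5 members differed in any of the 3 pairs of lines. Of all tested genes, 0.0165% differed in response between hβ3 and pMx, 0.0412% between hβ3 and Δβ3 and 0% between Δβ3 and pMx. For hβ3 minus pMx, the difference in log2 change was -0.53 for Gbp2 (95% interval -1.11 to 0.05), -0.45 for Irgm1 (-1.09 to 0.20), -0.75 for Gbp9 (-1.96 to 0.46), -0.82 for Igtp (-2.64 to 1.00) and 0.36 for Gbp3 (-1.41 to 2.12). With 16 libraries Gbp2 passed, at -0.52 ± 0.12 (adjusted p = 0.0234), where 1.05% of genes were called lower. Irgm1 stood at -0.44 ± 0.12 (0.0521) in that fit and Gbp9 at -0.75 ± 0.32 (95% interval -1.42 to -0.08, adjusted p = 0.257). In a fit of the 4 hβ3 and pMx groups alone, Gbp2 (adjusted p = 0.0364) and Irgm1 (0.0479) both passed.

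For hβ3 minus Δβ3 the difference in Gbp2 was -0.41 (95% interval -0.99 to 0.17) with 18 libraries and -0.59 ± 0.14 (adjusted p = 0.0501) with 16. For Δβ3 minus pMx it was -0.12 (-0.70 to 0.46) with 18 libraries and 0.06 (-0.22 to 0.35) with 16. The intervals of the other members in these pairs were wider than that of Gbp2 and included 0 with 18 libraries. With 16 libraries, hβ3 minus Δβ3 was -0.84 for Gbp9 (95% interval -1.59 to -0.08) and -0.29 for Irgm1 (-0.56 to -0.01). Neither was called (adjusted p 0.44 and 0.49), and the intervals of Gbp3 and Igtp included 0.

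The lines were then compared with each other in DMSO, which asks what functional integrin β3 goes with in untreated cells. Gbp2 and Gbp9 were lower in hβ3 than in either other line. Against pMx, Gbp9 was lower by a log2 difference of -2.06 ± 0.43 (4.17-fold, adjusted p = 0.00422) and Gbp2 by -0.81 ± 0.20 (1.75-fold, 0.0134), 2 of 5 members where 4.13% of genes were lower. The call of Gbp2 ended without pMx culture 3 (0.0586) or hβ3 culture 1 (0.0536). Gbp3 stood at -1.79 ± 0.65 (0.0974), Igtp at -0.57 ± 0.66 (0.729) and Irgm1 at -0.24 ± 0.22 (0.655), although the Irgm1 levels of hβ3 (50.3 to 52.3 CPM) and pMx (59.2 to 62.1) did not overlap. With 16 libraries Gbp2, Gbp3, Gbp9 and Irgm1 were lower, where 13.5% of genes were.

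Against Δβ3 in DMSO, Gbp9 was lower by -1.66 ± 0.43 (adjusted p = 0.0149) and Gbp2 by -0.71 ± 0.20 (0.0233), where 6.86% of genes were lower. Both calls were near the threshold. That of Gbp9 ended without Δβ3 culture 1 (0.0933) or hβ3 culture 2 (0.0586) or 3 (0.0691), and in a fit of these 6 libraries alone (0.0539). That of Gbp2 ended without Δβ3 culture 2 (0.0783) or 3 (0.0517) or hβ3 culture 1 (0.0786) or 3 (0.0715). With 16 libraries Gbp2, Gbp9, Igtp and Irgm1 were lower (adjusted p 1.07e-06 to 0.0472), where 12.2% of genes were. No tested member was called between Δβ3 and pMx with 18 libraries, 0 of 5 where 0.0412% of genes were. For Gbp2 the difference was -0.10 (95% interval -0.51 to 0.31). With 16 libraries Gbp9 was lower in value in Δβ3, without a call, at -0.83 ± 0.25 (95% interval -1.35 to -0.31, adjusted p = 0.246).

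In docetaxel the gap was wider in value for Gbp2, Gbp9, Igtp and Irgm1. For Gbp3 it was narrower, at -1.43 against -1.79 in DMSO for hβ3 minus pMx and -0.78 against -1.38 for hβ3 minus Δβ3. The matching differences in response were not called with 18 libraries. Against pMx, Gbp9 was 7.001-fold lower in hβ3, at -2.81 ± 0.41 (log2, adjusted p = 0.000264), and Gbp2 2.52-fold lower, at -1.34 ± 0.20 (0.000264), 2 of 5 members where 3.83% of genes were lower. Both calls were kept in all 25 alternative settings. Irgm1 stood at -0.68 ± 0.22 (0.0607), Gbp3 at -1.43 ± 0.52 (0.112) and Igtp at -1.39 ± 0.56 (0.151). With 16 libraries all 6 tested members were lower in hβ3 (adjusted p 7.89e-12 to 0.0444), where 12.2% of genes were. The 0.0444 is that of Iigp1, which passed the filter only through pMx docetaxel cultures 1 and 2. It therefore had to be high in pMx docetaxel, and its place in this count is not support.

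Against Δβ3 in docetaxel, Gbp9 was lower by -2.78 ± 0.41 (adjusted p = 0.000307) and Gbp2 by -1.12 ± 0.20 (0.0013), where 5.69% of genes were lower. With 16 libraries Gbp9 stood at -2.08 ± 0.22 (5.9e-08), and 5 of 6 members were lower, all but Iigp1, where 10.3% of genes were. A fit of these 6 libraries alone called neither gene (adjusted p 0.0534 and 0.0818). No tested member was called between Δβ3 and pMx in docetaxel either, 0 of 5 where 0.0247% of genes were. The Gbp2 difference was -0.22 (95% interval -0.62 to 0.19) and that of Gbp9 -0.03 (-0.83 to 0.78). With 16 libraries the Gbp9 value was -0.75 ± 0.20 (95% interval -1.16 to -0.33, adjusted p = 0.137). In levels, Gbp2 was lowest in hβ3 in docetaxel (164.5 ± 6.56 CPM in pMx, 141.5 ± 49.4 in Δβ3 and 65.2 ± 6.96 in hβ3, SD, n = 3) and in DMSO (40.3 ± 1.63, 37.6 ± 4.10 and 23.1 ± 1.30). pMx and Δβ3 have no order beyond their spread, and with 16 libraries the docetaxel difference of Δβ3 minus pMx turned to 0.04 ± 0.09 (adjusted p = 0.924).

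**Figure D3:**
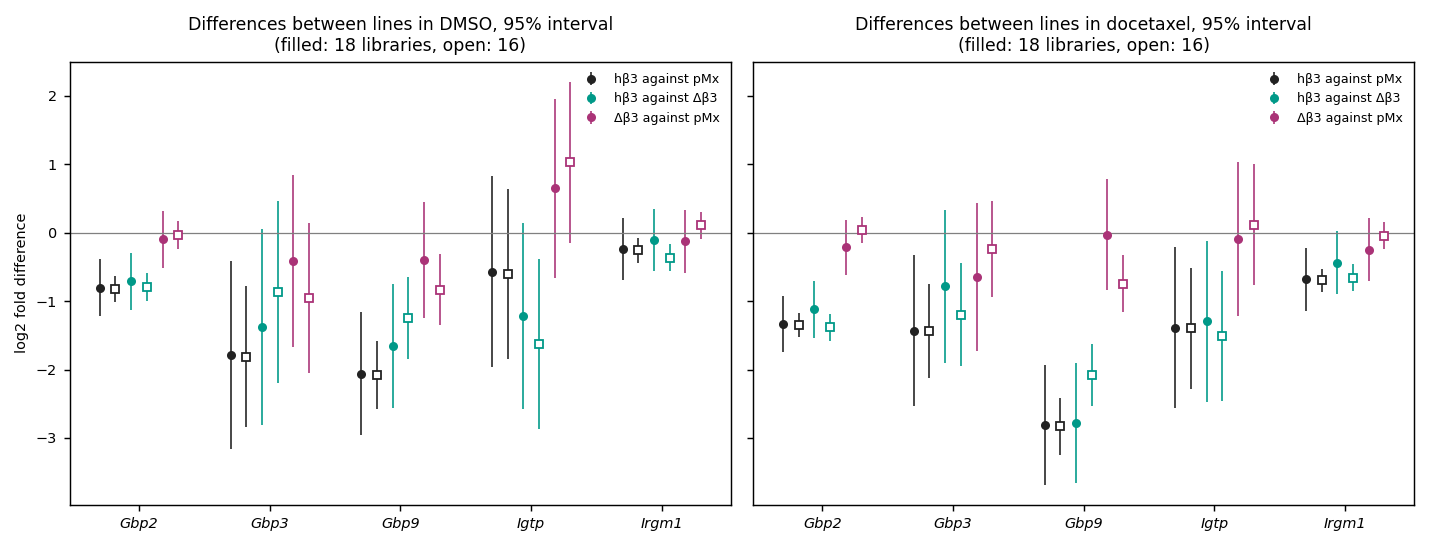
Log2 fold difference between lines with its 95% interval for the 5 tested members, in DMSO (left) and docetaxel (right); filled circles are the fit of 18 libraries and open squares that of 16. The hβ3 values of Gbp2 and Gbp9 lie below 0 against both other lines, and for Δβ3 against pMx the 18-library intervals of all 5 members include 0. The 16-library intervals of Gbp9 for Δβ3 against pMx lie below 0 in both panels, without a call (adjusted p 0.246 and 0.137).

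Other features of the libraries moved with these comparisons, and their part in the results was not tested. The summed level of 12 leukocyte and macrophage markers was 39.5 to 45.9 CPM in pMx DMSO and 49.3 to 58.0 in pMx docetaxel, 33.3 to 42.7 and 50.6 to 51.7 in hβ3, and 38.3 to 77.8 and 57.7 to 234 in Δβ3. It rested on Cd14 (9050 counts), Lyz2 (2050) and Cd68 (1299). Over all libraries together, Fcer1g had 197 counts, Tyrobp 116, Itgam 50, Csf1r 47, Aif1 5, Ptprc 3, Cd3e 1 and Adgre1 0. Endothelial markers summed to 671 CPM in Δβ3 docetaxel culture 2 and 74.7 in Δβ3 DMSO culture 1, against 3.65 to 34.0 elsewhere, with 6 of 7 markers detected and Tek at 0.

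Between lines, the fibroblast markers, all 8 of them detected, were lower in hβ3, at 14.2 to 22.1 CPM in DMSO against 24.8 to 68.8 in pMx and 31.7 to 194 in Δβ3. In docetaxel they were 15.2 to 25.8 CPM in hβ3, 24.7 to 77.1 in pMx and 35.8 to 1141 in Δβ3. Heart muscle markers, 17 of 18 detected with Nppb at 0, were 173 to 394 CPM in hβ3 DMSO, 325 to 1633 in pMx DMSO and 352 to 4457 in Δβ3 DMSO. Rn45s took 10.9% to 33.0% of counts in hβ3 DMSO and 8.36% to 9.81% in pMx DMSO, and 11.1% to 19.2% and 6.59% to 8.81% in docetaxel. Luminal epithelial markers, 7 of 8 detected with Elf3 at 0, were 1980 to 2077 CPM in hβ3 DMSO, 2247 to 2587 in pMx DMSO and 3049 to 3416 in Δβ3 DMSO. In docetaxel they were 2234 to 2525 CPM in hβ3, 2175 to 2506 in pMx and 1191 to 3236 in Δβ3. Their part in the lower Gbp2 and Gbp9 levels of hβ3 was not tested.

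The rest of the family was read from a list of 19 further GBP and IRG genes, all of them in the table. Tests were possible for 6, and 3 of these rose in the mean response, where 7.9% of genes did, with 0 lower and a median log2 change of 1.06 against 0.06. These were Tgtp2, an effector IRG of the chromosome 11 cluster (3.02 ± 0.60, adjusted p = 0.00139), Gm12250, which encodes an IRG protein near Igtp (1.74 ± 0.41, 0.00673), and F830016B08Rik, an IRG gene near Iigp1 on chromosome 18 (3.21 ± 0.48, 0.000347). F830016B08Rik had 0 counts in the 3 hβ3 DMSO cultures and 16 in the docetaxel ones. That is 6.01-fold above a floor of 3 counts over the group, with the counting error of the 16 not allowed for. Tgtp2 and F830016B08Rik passed the count filter through docetaxel libraries alone. Tgtp2 reached 5.59 CPM in Δβ3 docetaxel culture 2, against 0.561 and 0.627 in cultures 1 and 3, and Gm12250 was 0.466 there against 4.49 and 4.66. With 16 libraries these 3 genes still rose, by 2.60, 2.21 and 3.45. Irgq, a divergent relative, stood at 0.33 ± 0.15 (0.138) with 18 libraries and rose by 0.39 ± 0.14 (0.044) with 16.

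The remaining pair of tested family genes went the other way between lines. Gm5431 (chr11:48887422-48902214) and 9930111J21Rik1 (chr11:48946150-48979398) encode IRG-like proteins, lie on the minus strand beside Irgm1 and did not pass the test for docetaxel, at 0.19 ± 0.40 (adjusted p = 0.776) and 0.39 ± 0.30 (0.432). Gm5431 had 1.39, 3.35 and 1.99 CPM in hβ3 DMSO and 1.97, 2.21 and 1.26 in hβ3 docetaxel, against 0.0865 to 0.624 in the other 12 libraries. It was therefore tested only through the line in which it is high. 9930111J21Rik1 had 5.20, 4.22 and 6.17 CPM in hβ3 DMSO and 6.12, 5.34 and 4.37 in hβ3 docetaxel, against 0.0776 to 1.68 elsewhere. In DMSO, Gm5431 was higher in hβ3 than in pMx by 2.89 ± 0.66 (0.00752) and than in Δβ3 by 3.06 ± 0.68 (0.00518), and 9930111J21Rik1 by 2.70 ± 0.51 (0.00222) and 3.09 ± 0.54 (0.000758). In docetaxel both were again higher, Gm5431 by 2.34 (0.0308) and 2.12 (0.0443) and 9930111J21Rik1 by 2.00 (0.0159) and 2.70 (0.00302). Of all tested genes, 4.88% were higher in hβ3 than in pMx and 6.27% than in Δβ3 in DMSO, and 4.63% and 4.38% in docetaxel. All 8 calls held with 16 libraries. Neither promoter held the ISRE or GAS letters.

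**Figure D4:**
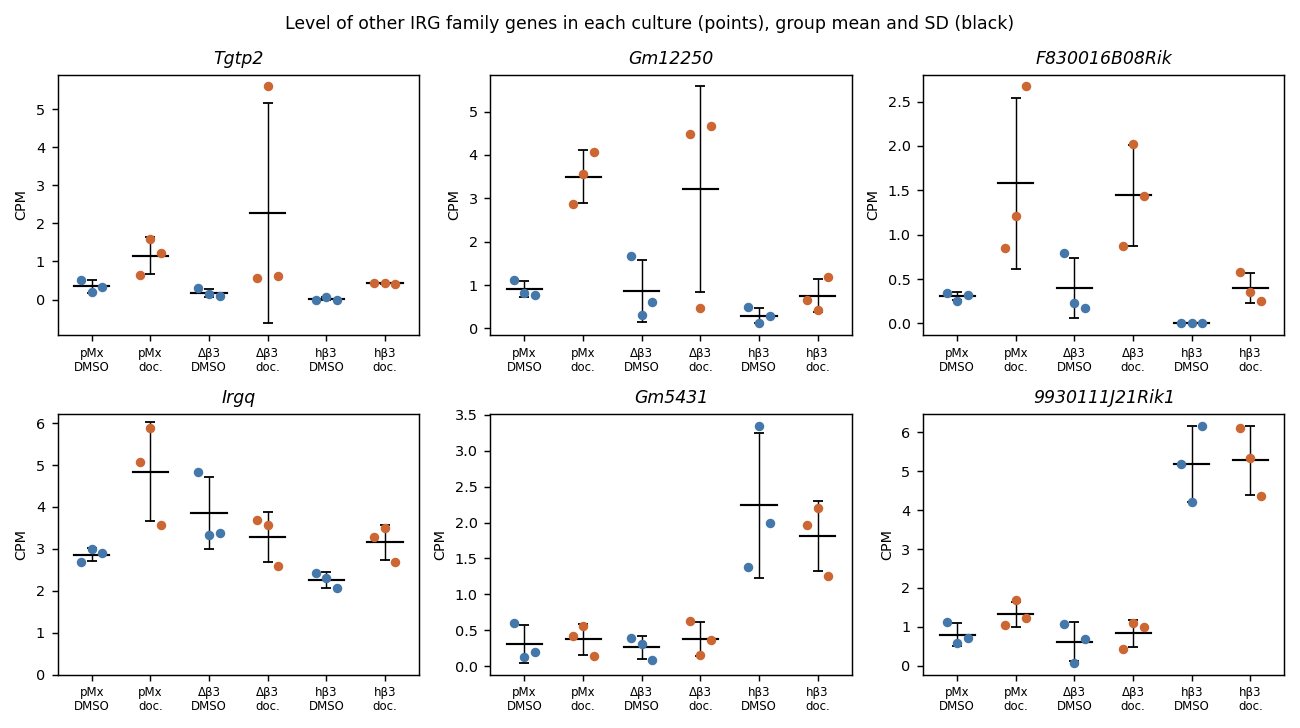
Level (CPM, linear axis) of the 6 other tested IRG family genes in each culture, with points for cultures, a black bar for the group mean and whiskers for the SD (n = 3 per group); blue is DMSO and orange is docetaxel (doc.). Gm5431 and 9930111J21Rik1 are high in the 6 hβ3 cultures and low in the other 12.

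The 13 family genes without a test had 0 to 21 counts each. Gbp2b, Gbp4, Gbp5 and Gvin1 had 0, which does not show that they are silent. They have 2, 2, 3 and 5 transcript models, and the counting of reads that fit several models was not given. Gbp8 had 0 counts in pMx DMSO and 9 in pMx docetaxel, 3.09-fold above the same floor with the counting error of the 9 not allowed for, and 20 in all. Some 50-base windows of Gbp9, which rose, also occur in Gbp8. 9930111J21Rik2 had 21, Gbp10 8, Gm12185 5, Gbp11 4, Gm4951 4, Ifi47 3, Irgc1 3 and Tgtp1 2. RefSeq promoters were given for 11 of the 19 further genes, and 6 held the ISRE letters (Gbp2b, Gbp5, Tgtp1, Tgtp2, Gm12250 and Gm12185).

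Genes that act around the GTPases were read from lists, in the mean response. Over all tested genes 7.9% rose and the median was 0.06 with 18 libraries, and 15.8% rose and the median was 0.02 with 16. None of 10 interferon ligands had enough counts to test. Ifnb1, interferon beta, had 0 to 7 counts per library and Ifng, interferon gamma, 2 counts in all. Of 6 interferon receptor genes, 0 passed with 18 libraries and 3 rose with 16 (median 0.48 and 0.34). Of 10 tested JAK-STAT and IRF transducers (13 listed), 3 rose and 0 fell (median 0.49). Among them were Stat2, which carries the interferon signal to the nucleus (1.12 ± 0.20, adjusted p = 0.000999), and the kinase Tyk2 (1.07 ± 0.22, 0.00318). Irf1, the transcription factor that drives many GBPs, stood at 0.63 ± 0.30 (0.176) and Irf9, a DNA-binding partner of STAT2, at 0.94 ± 0.54 (0.263). Irf7 had 0 counts, which does not show that it is silent.

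Brakes on interferon signalling were mixed. Of 7 tested genes (8 listed), 2 rose and 0 fell (median 0.24), and with 16 libraries also 2 rose, with a median of 0.032, close to that of all genes. Usp18, which blocks the type I interferon receptor, rose by 2.35 ± 0.17 (adjusted p = 1.4e-07) and Cish, a cytokine signalling inhibitor, by 1.21 ± 0.39 (0.0443), whereas Socs1, which inhibits JAK kinases, stood at -0.55 ± 0.22 (0.1). Usp18 was also lower in hβ3 than in pMx in DMSO (-1.88 ± 0.30, 0.000484) and docetaxel (-2.00 ± 0.29, 0.000213). Its levels in pMx were 11.5 ± 1.71 CPM (SD, n = 3) in DMSO and 72.0 ± 1.50 in docetaxel, and in hβ3 3.10 ± 1.02 and 17.98 ± 2.96.

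Genes of ubiquitin-like conjugation place IRGs and GBPs on vacuoles. Of 12 tested (15 listed), 4 rose and 0 fell (median 0.30): Map1lc3b (0.59 ± 0.06, adjusted p = 8.48e-06), Atg12 (0.44 ± 0.08, 0.000888), Gabarap (0.35 ± 0.06, 0.00118) and Gabarapl1, named after its value was seen (0.85 ± 0.18, 0.00409). With 16 libraries 6 of 13 rose and 1 fell. Map1lc3b, Gabarap and Gabarapl1 encode LC3-family proteins of autophagosomes and Atg12 a part of the ligase that attaches them. Of the inflammasome genes that act downstream of GBPs, 0 of 4 tested (9 listed) passed with 18 libraries (median 0.51), and Casp1 stood at 0.44 ± 0.15 (0.06). With 16 libraries 1 of the 4 rose.

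Further targets of interferon gamma showed the largest median of these lists, 1.15. Of 10 tested (16 listed), 6 rose and 0 fell. Nlrc5, the activator of MHC class I genes, rose by 0.97 ± 0.10 (adjusted p = 5.9e-06), Cd274, which encodes PD-L1, by 0.86 ± 0.11 (4.83e-05) and the chemokine Cxcl10 by 1.72 ± 0.28 (0.000358). With 16 libraries 6 of 9 rose (median 0.92). Between untreated lines the list was split. For hβ3 minus pMx in DMSO, 2 of 10 were higher and 0 lower, 4 of 10 values were above 0, and the median was -0.25 against -0.01 over all genes. Of all tested genes, 4.88% were higher and 4.13% lower. With 16 libraries 2 of 9 were higher and 3 lower, where 1640 of 12356 genes were higher and 1672 lower. In hβ3 DMSO, Nlrc5 was higher than in pMx by 0.74 ± 0.17 (0.00894) and Cd274 by 0.93 ± 0.19 (0.00413), while Cxcl10 stood at 0.55 ± 0.51 (0.657). Nlrc5 had 9.79 ± 0.38 CPM (SD, n = 3) in hβ3 DMSO and 5.84 ± 0.45 in pMx DMSO, and Cd274 12.2 ± 1.75 and 6.39 ± 0.57.

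The genes whose pattern over the 6 groups was most like the mean pattern of the 5 tested members were ranked by the root mean square difference of centred group means of log2(CPM + 1), a description with no test. Trim30a, an interferon-induced TRIM protein, was closest at 0.0605. It was followed by Oas1b, a member of the 2′-5′ oligoadenylate synthetase family, at 0.158, Mndal, an interferon-inducible nuclear protein, at 0.162, A330074K22Rik at 0.169, Sp100, a nuclear body protein, at 0.185, and Nbl1, a secreted BMP antagonist, at 0.186. Among the members themselves, Gbp2 lay at 0.236 from the mean pattern, Gbp3 at 0.241, Irgm1 at 0.263, Igtp at 0.287 and Gbp9 at 0.56.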

How the data were processed

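RNA was sequenced from 18 cultures in 6 groups of 3, with 50-base single reads after ribosomal RNA removal, 13 PCR cycles and 1 µg of total RNA, per the labels' protocols. The deposited values are raw read counts per transcript model with the model's length, which the authors made with FastQC, HISAT2 and featureCounts on mm10, per the submitters' processing notes. Their versions, the annotation, the use of strand and the treatment of reads matching more than 1 model remain not given in the sources used here. In all, 63759 models are listed. Counts were summed per symbol (13170 symbols have more than 1 model).

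Genes kept by filterByExpr were tested with edgeR 4.0.16 in R 4.3.3: TMM factors, 1 coefficient per group over 18 libraries, the robust quasi-likelihood F-test, two-sided, and Benjamini-Hochberg adjustment over all 12145 genes, with calls at an adjusted p under 0.05. The 95% intervals come from the edgeR SE and its t distribution. Alternatives were RLE factors, no filter, the best counted model of each symbol, 16 libraries, a replicate block, only the compared groups, DESeq2 1.42.0 and leaving out each library. Named were all 9 members, 19 family genes, up to 3 genes with the smallest p per list, a few pathway genes whatever their values, and the 6 genes most like the members. Members, lists and tests were chosen with earlier results of these data known. Some genes of these lists are not reported here by name.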

Additional observations from a re-analysis of the deposited data

How the results depend on the processing

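In the mean docetaxel response, Gbp2, Gbp3, Gbp9, Igtp and Irgm1 kept direction and call in all 24 alternatives. Over all comparisons, 50 of 65 member results kept their sign in every alternative, and none called with 18 libraries changed sign. Irgm1 for hβ3 against Δβ3 in DMSO was called with 16 libraries (-0.37, edgeR adjusted p = 0.00554) but reached 0.13 in another setting. The number of members called moved by over 1.5 times as follows. With 16 libraries there were 4 in hβ3, 1 for the response of hβ3 minus pMx, 4 for hβ3 against pMx and 4 against Δβ3 in DMSO, and 6 and 5 in docetaxel. With only the compared groups there were 0 in Δβ3, 4 in hβ3, 2 for the response of hβ3 minus pMx, 1 for hβ3 against Δβ3 in DMSO, and in docetaxel 5 for hβ3 against pMx and 0 against Δβ3. DESeq2 called 3 in hβ3, of 3 with an adjusted p. Leaving out 1 library gave 5 to 6 in the mean response, 3 to 6 in pMx, 3 to 4 in Δβ3 and 1 to 4 in hβ3. It gave 1 to 3 for hβ3 against pMx and 0 to 2 against Δβ3 in DMSO, 2 to 4 and 2 to 3 in docetaxel, and 0 otherwise. The labels do not say whether a culture number marks paired samples. Same-number correlations between conditions ran from -0.503 to 0.459 and cannot settle it. In pMx they were 0.363, -0.0746 and 0.352. The lowest, -0.503 and -0.477, were those of Δβ3 cultures 1 and 2, which include the libraries that stood apart. A replicate block left 3 calls in pMx (Gbp2, Gbp9 and Irgm1, with edgeR adjusted p 0.0583 for Gbp3 and 0.0525 for Igtp). It changed no other count of members. Over all genes the block gave 1680 calls in the mean response and 382 in pMx. With 1 culture of a group left out or with Δβ3 groups of 2, the fit pools the spread over groups.

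Over all genes, 16 libraries called 3715 (1891 with 18) in the mean response, 2626 (440) in pMx and 1539 (141) in hβ3, and 1391 (834) in Δβ3, where only its own groups gave 0. Between lines they called 3312 (1095) for hβ3 against pMx and 2880 (1594) against Δβ3 in DMSO, and 3378 (1027) and 2460 (1223) in docetaxel, 284 (2) for the response of hβ3 minus pMx and 73 (5) of hβ3 minus Δβ3. The cause was not tested. The biological coefficient of variation with 18 libraries was 36.1%. The 311 counts of Gbp3 and 258 of Igtp leave their intervals wide.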
